A study of Mus musculus with 2 samples.

Results

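Serpins are protease inhibitors that work once: the target protease cuts an exposed loop of the serpin, the reactive centre loop, and is then trapped in a complex with it. Clade B serpins stay inside the cell that makes them, and in cytotoxic lymphocytes they meet granzymes, the serine proteases of the cytotoxic granules, when these leak into the cytosol. Described here are 8 serpin genes expressed in such cells, 6 of clade B (Serpinb9, Serpinb9b, Serpinb6a, Serpinb6b, Serpinb1a and Serpinb1b) and 2 of clade A3 (Serpina3f and Serpina3g), in γδ T cells of mouse spleen. They were picked by symbol, with earlier results of these data known, from a table of 24091 genes that holds 64 serpins.

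The data are RNA-seq read counts of 2 libraries, 1 of cells labelled as expanded with interleukin 2 (IL-2) and 1 of cells labelled as freshly isolated. Per the labels, the cells were sorted from mouse spleen by flow cytometry. For expansion they then spent 5 days with plate-bound anti-CD3, soluble anti-CD28 and recombinant mouse IL-2 (100 U/ml). The sources used here give no strain, age or number of animals. The labels give both libraries the same protocol text, RNA extraction from cultured cells included, so the fresh library is taken as uncultured from its treatment label alone, and activation, culture and IL-2 cannot be told apart. There was 1 library a group, so nothing below has a replicate check and no difference was tested. Intervals are exact 95% intervals and cover counting error alone. In bulk RNA, fewer cells of a type and less RNA per cell cannot be told apart.

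The expanded library held 22204099 counts and the fresh library 20379385, and 1 count was worth 0.0476 and 0.0465 CPM (counts per 1000000 of the scaled library). The T cell markers were abundant in both, with the CD3 chain gene Cd3g at 743 CPM in expanded and 698 CPM in fresh cells, Thy1 at 2278 and 847 CPM and the kinase gene Lck at 563 and 1184 CPM. Of the 9 measured, 1 (Thy1) was at least 2-fold higher in expanded cells and 2 were at least 2-fold lower. The lower ones were Lck and Cd2 (76.2 and 396 CPM). Of all genes compared, 22.4% were that much higher and 25.0% that much lower. The 20 macrophage and monocyte markers summed to 245 CPM in expanded and 1650 CPM in fresh cells. In the expanded library 11 of them had 0 counts, C1qa, C1qb, C1qc and Lyz2 included, while in the fresh library each had counts. Of the 19 measured, 17 were lower in expanded cells by 2-fold or more, beside 25.0% of all genes compared. However, 14 of the 19 passed the minimum of 1 CPM on average through the fresh library alone and so had to be lower. Of the others, Cd14, Itgam and Ly6c2 were lower by 2-fold or more, and Cd68 and Hmox1 lay within 2-fold. Ly6c2 (154 CPM in expanded and 421 CPM in fresh cells) and Hmox1 (63.0 and 119 CPM) were highest in expanded cells, and Ly6c2 and Vcam1 (0 counts and 166 CPM) in fresh cells. The 14 B and plasma cell markers summed to 4.47 CPM in expanded and 941 CPM in fresh cells, Jchain alone at 0 counts and 784 CPM. The 14 dendritic cell and MHC class II genes summed to 27.5 and 1316 CPM, led in fresh cells by Cd74 (4.61 and 582 CPM). Batf3 of this list went the other way, at 12.1 CPM in expanded and 3.21 CPM in fresh cells. Of 13 neutrophil markers, 10 had 0 counts in the expanded library, S100a8, S100a9 and Mpo included, and 3 in the fresh library, while Ly6g (374 and 0 counts) and the protease gene Ctsg (639 counts and 1) were higher in expanded cells. The 9 mast cell and basophil markers summed to 40.5 and 46.2 CPM, with Kit at 22.4 and 42.4 CPM and Mcpt8 at 359 and 2 counts. Summed markers of macrophages, B cells and dendritic cells were thus lower in the expanded library. The neutrophil sum was higher there (48.2 and 11.9 CPM), but nearly all of it was Ctsg (30.4 CPM) and Ly6g (17.8 CPM). With 10 of the 13 at 0 counts, that sum does not describe the list as a whole. Ctsg is also among the granule proteases below. The part of all these cells in the serpin values was not tested.

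Serpins of clade B share a hinge at the start of the reactive centre loop and differ in the loop that follows, which is the part a protease reads. The stretches below are the coding sequence of that region in the GENCODE M21 transcripts (build GRCm38, all 6 genes on chromosome 13). They run from the hinge to a second, partly conserved run at the far end, whose first codon differs in all 6 genes. Both ends were set at a fixed length, and capitals mark the part of the loop between them. The stretches are shown because the levels that follow belong to inhibitors with different loops on a common frame.
Serpinb9: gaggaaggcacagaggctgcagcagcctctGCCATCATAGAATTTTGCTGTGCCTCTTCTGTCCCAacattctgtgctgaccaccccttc
Serpinb9b: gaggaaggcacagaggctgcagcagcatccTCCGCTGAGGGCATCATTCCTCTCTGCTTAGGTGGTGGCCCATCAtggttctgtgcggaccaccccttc
Serpinb6a: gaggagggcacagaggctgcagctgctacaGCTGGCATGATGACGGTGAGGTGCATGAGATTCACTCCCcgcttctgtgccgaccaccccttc
Serpinb6b: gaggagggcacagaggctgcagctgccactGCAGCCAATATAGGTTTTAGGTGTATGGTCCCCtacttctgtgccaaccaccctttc
Serpinb1a: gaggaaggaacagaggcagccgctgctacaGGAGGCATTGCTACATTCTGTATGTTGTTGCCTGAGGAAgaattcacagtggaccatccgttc
Serpinb1b: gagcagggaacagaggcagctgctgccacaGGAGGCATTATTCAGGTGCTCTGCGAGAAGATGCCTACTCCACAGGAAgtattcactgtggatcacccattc

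Of the 30 hinge bases, 21 were identical in all 6 genes. The capitalised part ran from 11 codons in Serpinb6b to 16 codons in Serpinb1b, with 12 in Serpinb9 and 15 in Serpinb9b. Over the whole coding sequence, identity of aligned bases was 86.4% between Serpinb9 and Serpinb9b and 86.3% between Serpinb6a and Serpinb6b. It was 90.7% between Serpinb1a and Serpinb1b. Between Serpina3f and Serpina3g it was 87.4%, over 744 aligned bases only. The coding sequence of the Serpina3g transcript used has 744 bases, against 1335 for Serpina3f. Copies this alike can share reads. Of all 50-base windows of the transcripts, the share also found in an annotated transcript of another gene was 0.380% for Serpinb9, 5.62% for Serpinb9b, 13.1% for Serpinb6a, 3.13% for Serpinb6b, 3.42% for Serpinb1a, 3.52% for Serpinb1b, 10.7% for Serpina3f and 16.02% for Serpina3g. At 100 bases the share was 0 for Serpinb9, Serpinb6b, Serpinb1a and Serpinb1b and at most 5.05% for the rest. All genes and both strands were searched, so the shares are not of copies alone. At 100 bases the share of Serpinb6a, the 5.05%, came from 1110046J04Rik alone and that of Serpinb9b from Gm36099 alone. Exons of these 2 genes overlap the serpin on the other strand, and neither is a serpin copy. Without a stated read length, the split of reads between copies is uncertain. These shares count exact matches of a single transcript per gene and set no limit on that uncertainty.

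Of the 8 serpins, 5 were higher in expanded cells by 2-fold or more and 0 were lower by as much, where 22.4% of all 11715 genes compared were that much higher and 25.0% that much lower. Genes were compared if they averaged 1 CPM or more over both libraries. At 4-fold, 4 of the 8 were higher, where 8.92% of all genes were higher and 13.5% lower. The higher members were the granzyme inhibitor genes Serpinb9, Serpinb9b and Serpinb6b, with Serpinb6a and Serpinb1b. Serpinb1a and both clade A3 genes lay within 2-fold. All 8 passed this minimum, but Serpinb9b and Serpinb1b passed it through the expanded library alone and so had to differ. Without them 3 of 6 were higher at 2-fold and 2 of 6 at 4-fold. The median log2 fold, expanded over fresh, was 2.02 for the 8 genes, also with Serpinb1b set to its bound, but 1.01 without that pair, and 0.04 for all genes compared. Since the genes were chosen with their values known, these figures are a description.

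**Figure D1:**
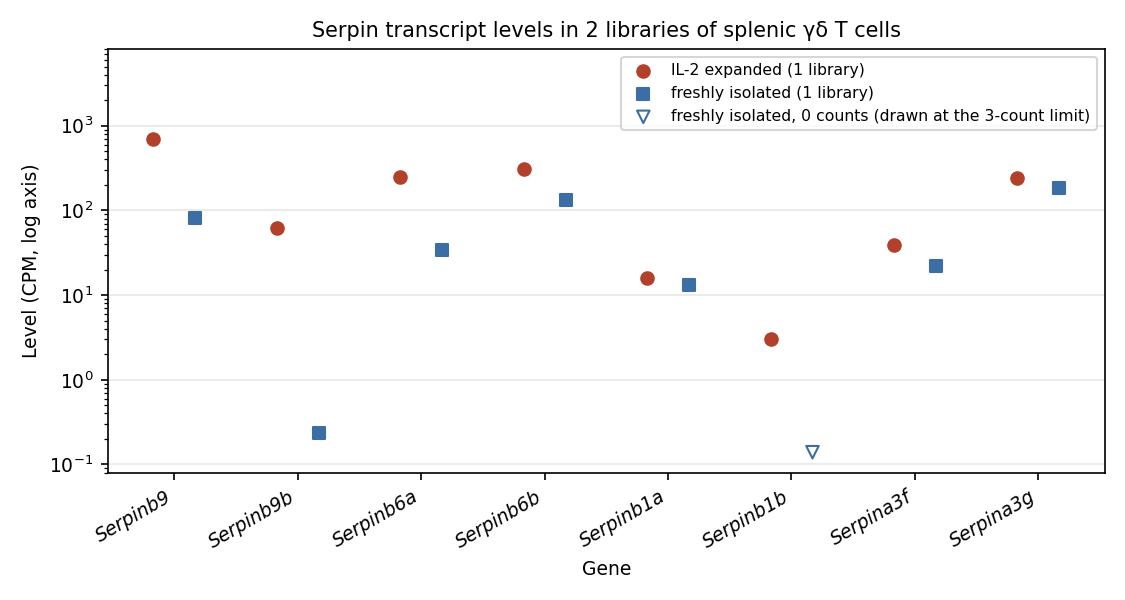
Level of each serpin in CPM on a log axis, 1 point per library, with IL-2 expanded cells as circles and freshly isolated cells as squares; the open triangle marks 0 counts, drawn at the 3-count limit. Serpinb9, Serpinb9b and Serpinb6a stand well apart between the libraries (698 against 80.6, 62.7 against 0.232 and 247 against 34.3 CPM), while the points of Serpinb1a and Serpina3g lie close together.

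Serpinb9 (SPI6), which inhibits granzyme B and protects the cytotoxic cell from its own granules, was the most abundant of the 8 in expanded cells. It had 14677 counts (698 CPM) in the expanded library and 1735 counts (80.6 CPM) in the fresh library, 8.66-fold higher in expanded cells (interval 8.24 to 9.11). Its log2 fold of 3.11 exceeded that of 95.2% of all genes compared. The gene lies on chromosome 13 from 33004541 to 33017955 (plus strand, build GRCm38, as deposited).

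Serpinb9b (SPI-CI), its neighbour and near copy, is described as an inhibitor of granzyme M. It had 1318 counts (62.7 CPM) in the expanded library and 5 counts (0.232 CPM) in the fresh library, a ratio of 270 with a wide interval (115 to 833) because of the 5 counts. Its log2 fold of 7.59 exceeded that of 99.6% of all genes compared. It was near the limit of detection in fresh cells. Serpinb9b lies 9.46 kb beyond Serpinb9 on the same strand (33027414 to 33040558). In GENCODE M21, 278 of its 3351 exon bases overlap Gm36099 on the other strand, and with the use of strand not stated the reads of both cannot be told apart there.

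Serpinb6b encodes an inhibitor of mouse granzyme A. It had 6411 counts (305 CPM) in the expanded library and 2846 counts (132 CPM) in the fresh library, 2.31-fold higher in expanded cells (interval 2.21 to 2.41). Its paralogue Serpinb6a (SPI3), whose human counterpart inhibits cathepsin G, had 5182 counts (247 CPM) in the expanded library and 739 counts (34.3 CPM) in the fresh library, 7.18-fold higher (interval 6.65 to 7.77). The larger ratio of the pair was thus that of Serpinb6a. Exons of Serpinb6a overlap those of 3 genes on the other strand in GENCODE M21, with 762 of 5409 bases shared with Nqo2, 584 with 1110046J04Rik and 241 with Ripk1. Of these neighbours, Nqo2 stood at 32.5 CPM in expanded and 16.8 CPM in fresh cells. The levels were 1.19 and 0.186 CPM for 1110046J04Rik and 152 and 99.4 CPM for Ripk1. Ratios were 1.93 for Nqo2, 6.40 for 1110046J04Rik (interval 2.21 to 25.3) and 1.53 for Ripk1, against 7.18 for Serpinb6a. The part of these neighbours in the Serpinb6a value was not tested.

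Serpinb1a, the counterpart of the human inhibitor of neutrophil elastase, proteinase 3 and cathepsin G, had 335 counts (15.9 CPM) in the expanded library and 283 counts (13.1 CPM) in the fresh library. The ratio was 1.21 with an interval of 1.03 to 1.42, so the levels were nearly alike. The interval holds for this scaling, and the log2 fold of 0.28 fell to 0.12 when the libraries were scaled by total count. Its copy Serpinb1b had 63 counts (2.997 CPM) in the expanded library and 0 counts in the fresh library, where 0 counts allow up to 0.139 CPM (3 counts). Against that limit Serpinb1b was at least 21.5-fold higher in expanded cells, and the exact interval, which also covers the counting error of the 63 counts, began at 17.0. Its level was the lowest of the 8.

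**Figure D2:**
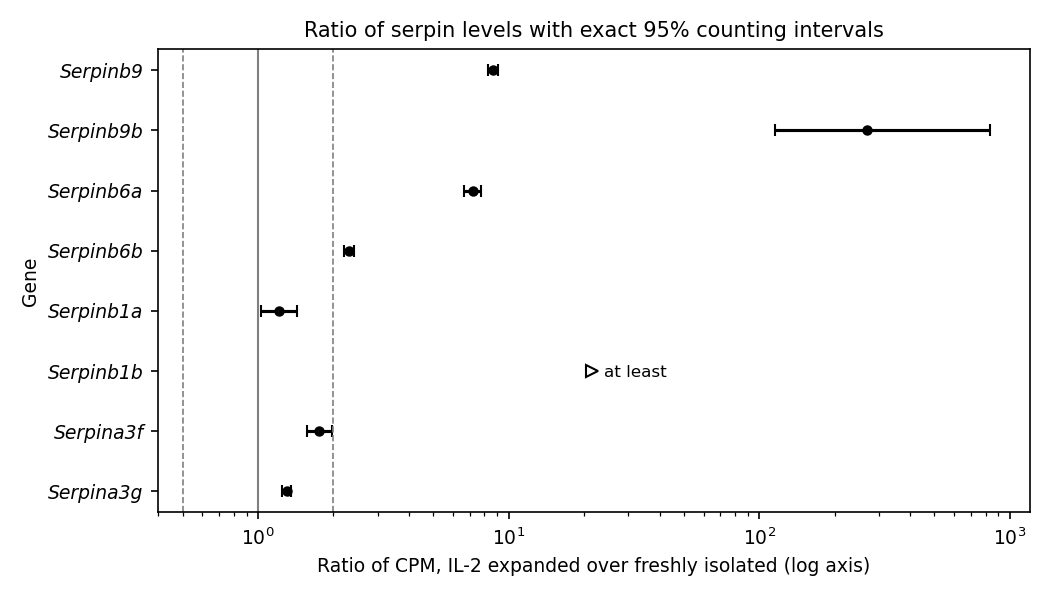
Ratio of CPM, IL-2 expanded over freshly isolated, on a log axis for each serpin; bars are exact 95% counting intervals, dashed lines mark 2-fold either way and the open triangle is a lower bound. The ratios run from 1.21 (Serpinb1a) to 270 (Serpinb9b), whose interval of 115 to 833 is the widest.

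Both clade A3 genes lay within 2-fold. Serpina3g (SPI2A), which unlike most clade A serpins acts inside the cell and inhibits the lysosomal cathepsins B and L, had 5083 counts (242 CPM) in the expanded library and 3992 counts (185 CPM) in the fresh library, a ratio of 1.30 (interval 1.25 to 1.36). Serpina3f, a close relative next to it, had 824 counts (39.2 CPM) in the expanded library and 480 counts (22.3 CPM) in the fresh library, a ratio of 1.76 (interval 1.57 to 1.97). Both genes were detected well in both libraries. The deposited span of Serpina3g (chromosome 12, 104214544 to 104241934, plus strand) contains that of Serpina3f (104214544 to 104221129) and overlaps that of Serpina3h, so the division of counts among them was uncertain. The sum of Serpina3f and Serpina3g was 281 CPM in expanded and 208 CPM in fresh cells, a ratio of 1.35 (interval 1.30 to 1.41). This sum does not depend on how counted reads were split between the pair. Reads counted for neither gene are missing from it, and their number is not known.

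Because levels of different genes can be set side by side only per length, counts were also divided by the deposited gene length and scaled to 1000000 in each library (TPM). In expanded cells the order was Serpinb9 at 473 TPM, Serpinb6b at 377 TPM, Serpina3g at 266 TPM, Serpinb6a at 159 TPM, Serpinb9b at 74.9 TPM, Serpina3f at 39.4 TPM, Serpinb1a at 19.1 TPM and Serpinb1b at 4.02 TPM. No counting intervals of neighbours in this order overlapped. In fresh cells Serpina3g led at 269 TPM, followed by Serpinb6b at 215 TPM, Serpinb9 at 72.0 TPM, Serpina3f at 29.6 TPM, Serpinb6a at 29.1 TPM, Serpinb1a at 20.8 TPM, Serpinb9b at 0.366 TPM and Serpinb1b at 0. In fresh cells the counting intervals of Serpina3f and Serpinb6a overlapped, as did those of Serpinb9b (0.119 to 0.854 TPM) and Serpinb1b (0 to 0.303 TPM). The leading serpin was thus a granzyme B inhibitor gene in expanded cells and a cathepsin inhibitor gene in fresh cells, and Serpinb6b was the second in both. The order in each library was the same with exon lengths from GENCODE M21 in place of the deposited lengths, a setting chosen after the data were seen.

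**Figure D3:**
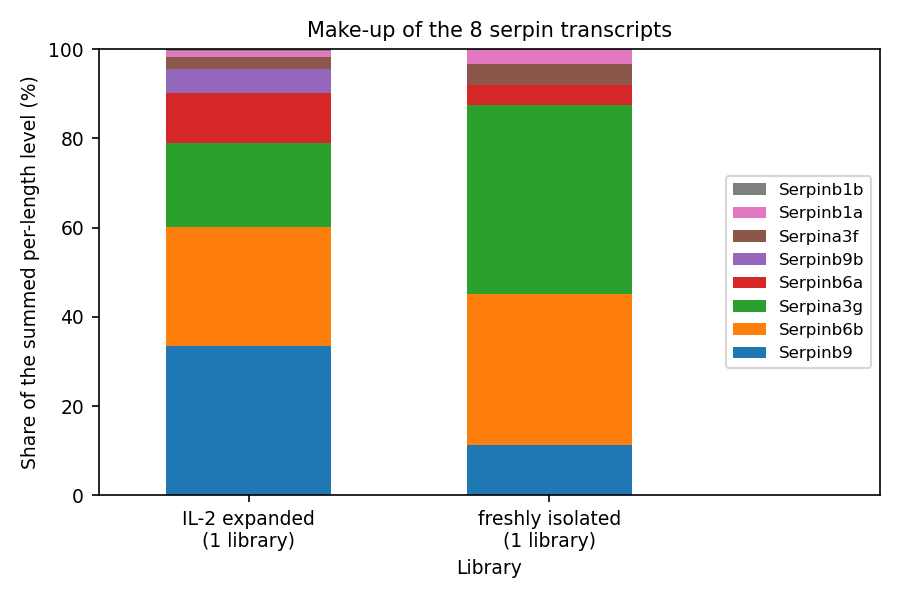
Share of each serpin in the summed per-length level of all 8, in percent, for the IL-2 expanded library (left) and the freshly isolated library (right). Serpinb9 takes 33.5% in expanded and 11.3% in fresh cells, while Serpina3g takes 18.8% and 42.2%.

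The make-up of the group differed between the libraries. Of the summed per-length level, Serpinb9 made up 33.5% in expanded and 11.3% in fresh cells, Serpinb6a 11.2% and 4.58%, and Serpinb9b 5.31% and 0.0575%. Serpina3g made up 18.8% in expanded and 42.2% in fresh cells, and Serpinb6b 26.7% and 33.9%. By CPM, the 8 genes summed to 1612 in expanded and 468 in fresh cells, a ratio of 3.44 (interval 3.37 to 3.52). The 6 clade B genes summed to 1331 and 261 CPM, a ratio of 5.11 (interval 4.97 to 5.26). Serpinb9 carried much of this, and without it the sum of the other 7 was 914 CPM in expanded and 388 CPM in fresh cells, a ratio of 2.36. Of each 1000000 TPM, Gzmb and Gzma took 45968 and 29072 in expanded cells, and 32.6 and 26.6 in fresh cells, which lowers every other TPM value of the expanded library. The TPM values also lack the scaling factors used for CPM. Serpina3g and Serpinb1a were slightly higher in expanded cells by CPM and slightly lower by TPM (266 against 269 and 19.1 against 20.8 TPM), and no direction is given for either. The part of the granzymes in this change of direction was not tested.

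The clade B members stand in 1 cluster of 15 serpin genes over 1161 kb of chromosome 13 (32842092 to 34002794), and its other 9 serpins were almost silent in both libraries. None of these 9 had more than 10 counts in either library. The Serpinb9 copies Serpinb9c, Serpinb9d, Serpinb9e, Serpinb9f and Serpinb9g had 1, 1, 3, 6 and 1 counts in the expanded library, and 0 counts in the fresh library apart from 1 count for Serpinb9f. Serpinb1c and Serpinb6c had at most 1 count in either library, and Serpinb6d and Serpinb6e had 0. Serpinb6b, Serpinb9 and Serpinb9b lie next to each other on the plus strand, with 25.5 kb between the first pair and 9.46 kb between the second. Inside the cluster, between Serpinb9g and Serpinb6d, Gm6093 (a long intergenic non-coding RNA gene in GENCODE M21) had 995 counts (47.3 CPM) in the expanded library and 0 counts in the fresh library, at least 340-fold higher against the 3-count limit, with an exact interval that began at 276. The clade A3 members lie in a cluster of 25 serpin genes on chromosome 12, of which the other 23 had at most 10 counts in each library.

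**Figure D4:**
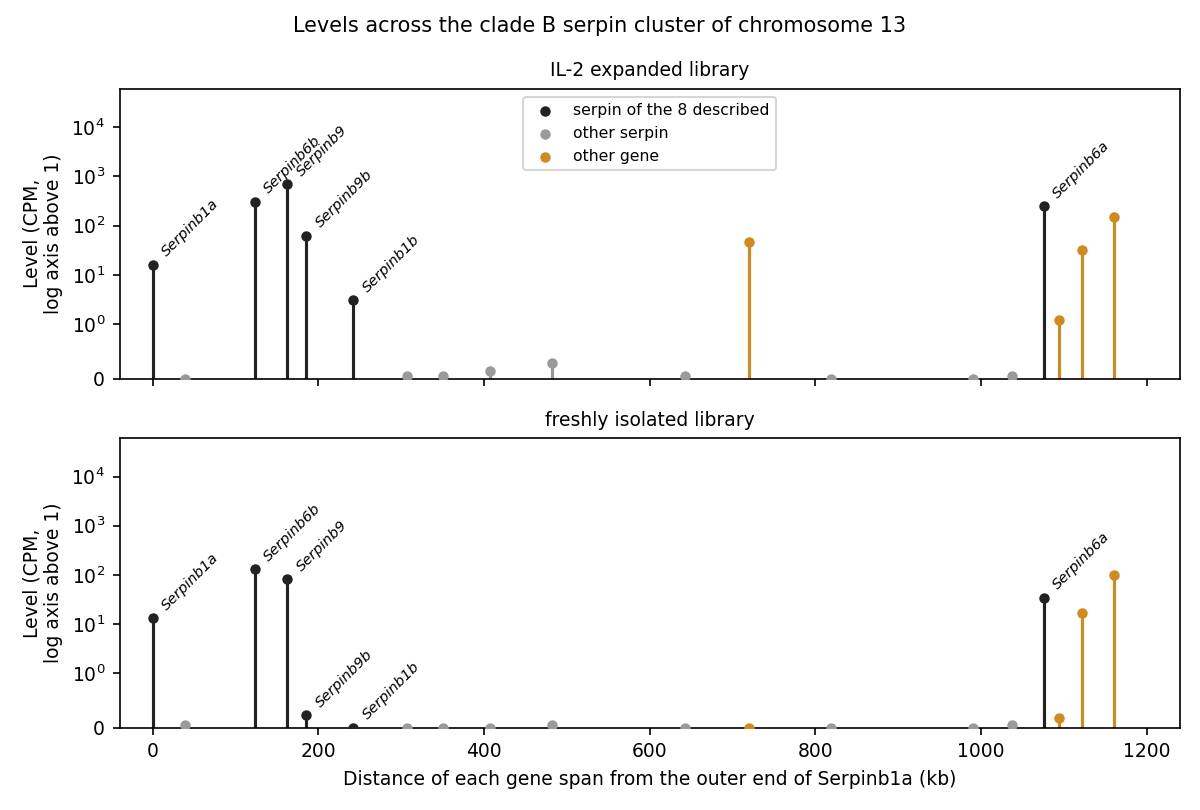
Level in CPM (log axis above 1, linear below) of every gene in the chromosome 13 serpin cluster against its distance from the outer end of Serpinb1a in kb, for the IL-2 expanded library (top) and the freshly isolated library (bottom). Black marks serpins of the 8, grey the other serpins and orange other genes; the grey points stay near 0 in both libraries, and the lone orange point at 720 kb is Gm6093 with 47.3 CPM in expanded cells and 0 counts in fresh cells.

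Outside the 8, 56 serpins were in the table, 33 of them with 0 counts in both libraries and 3 averaging 1 CPM or more. Serpine2 (protease nexin 1), a secreted inhibitor of thrombin and related proteases, had 7376 counts (351 CPM) in the expanded library and 58 counts (2.69 CPM) in the fresh library, 130-fold higher (interval 101 to 172). Serpini1 (neuroserpin), an inhibitor of tissue plasminogen activator, had 27 counts (1.28 CPM) in the expanded library and 505 counts (23.5 CPM) in the fresh library, 18.3-fold lower in expanded cells (interval 12.4 to 28.0). Serpinb10 (bomapin), known from myeloid cells, had 0 counts in the expanded library and 100 counts (4.65 CPM) in the fresh library, at least 32.6-fold lower against the 3-count limit, with an exact interval that began at 26.0. Serpinb10 passed the minimum of 1 CPM on average through the fresh library alone and so had to be lower. Macrophage markers were lower in the same direction (sums of 245 and 1650 CPM), and their part in the Serpinb10 value was not tested.

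Several of these serpins are known to block granule serine proteases. Of 13 such genes 10 were measured, and 6 of these (Gzmc, Gzmd, Gzme, Gzmf, Gzmg and Ctsg) passed the minimum through the expanded library alone and so had to be higher. Of the other 4, Gzma, Gzmb and Gzmk were at least 2-fold higher and Gzmm was lower, beside 22.4% and 25.0% of all genes. Gzmb stood at 28245 CPM in expanded and 15.2 CPM in fresh cells, a ratio of 1859, against 8.66 for Serpinb9. Per length, Gzmb exceeded Serpinb9 by 97.2 to 1 in expanded cells (45968 and 473 TPM), while in fresh cells Serpinb9 exceeded Gzmb by 2.21 to 1 (72.0 and 32.6 TPM). The pair of Gzma and Serpinb6b had the same form, with 29072 TPM of Gzma and 377 TPM of Serpinb6b in expanded cells, against 26.6 and 215 TPM in fresh cells. These are ratios of transcripts and not of proteins.

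The pair of Gzmm and Serpinb9b went the other way. Gzmm was the only measured granule protease at least 2-fold lower, with 39 counts (1.86 CPM) in the expanded library and 280 counts (13.01 CPM) in the fresh library, 7.01-fold lower (interval 5.00 to 10.07). Per length, Serpinb9b exceeded Gzmm by 24.6 to 1 in expanded cells (74.9 and 3.05 TPM), whereas Gzmm exceeded Serpinb9b by 77.0 to 1 in fresh cells (28.2 and 0.366 TPM). Ctsg, the cathepsin G gene, had 639 counts (30.4 CPM) in the expanded library and 1 count in the fresh library, a ratio of 654 with an interval of 117 to 25883. Elane and Prtn3, the other neutrophil proteases that Serpinb1a is known to block, had 0 counts each in the expanded library and 2 and 4 counts in the fresh library. Gzmd and Gzmg, the genes furthest up in this list, had 82396 and 60925 counts in the expanded library and 1 count each in the fresh library. Gzmk, with the smallest difference among the higher genes, stood at 4.99 CPM in expanded and 1.44 CPM in fresh cells.

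Cysteine proteases included targets of Serpina3g. Of 14 genes of cathepsins, legumain and caspases, 13 were measured, 5 of them at least 2-fold lower in expanded cells (median log2 fold -0.58), beside 25.0% of all genes. Ctsh was among these 5 and passed the minimum through the fresh library alone. Ctsb, a target of Serpina3g, stood at 203 CPM in expanded and 435 CPM in fresh cells, 2.14-fold lower in expanded cells, and Ctsl at 4.99 and 22.5 CPM, 4.51-fold lower. Serpina3g and Ctsb were near equal per length in fresh cells (269 and 278 TPM), and Serpina3g exceeded Ctsb by 2.69 to 1 in expanded cells (266 and 98.6 TPM). Ctsh (0.523 CPM in expanded and 39.8 CPM in fresh cells) and Lgmn (3.14 and 46.5 CPM) were furthest down. Casp1, which human SERPINB1 is known to restrain, stood at 79.6 CPM in expanded and 59.7 CPM in fresh cells. Cathepsins are abundant in macrophages, whose markers summed to 245 CPM in expanded and 1650 CPM in fresh cells, and their part was not tested.

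Of 18 protease inhibitors outside the serpins, 9 were measured, 2 at least 2-fold higher and 2 lower (median log2 fold -0.16), near the 22.4% and 25.0% of all genes. The cystatin gene Cstb, an inhibitor of cysteine cathepsins, stood at 98.8 CPM in expanded and 21.3 CPM in fresh cells, 4.65-fold higher, and Cst7, a cystatin of cytotoxic cells, at 242 and 121 CPM, a ratio of 2.005. Slpi, a secreted inhibitor of elastase, had 4 counts in the expanded library and 480 in the fresh library, and Timp2 47 and 933. Slpi, 1 of the 2 lower genes, passed the minimum through the fresh library alone and so had to be lower. Of 13 measured genes of granule release and matrix, 6 were at least 2-fold higher and 1 lower (median log2 fold 0.68), beside the same shares of all genes. Prf1, which encodes perforin, stood at 1786 CPM in expanded and 81.0 CPM in fresh cells, and the proton pump subunit gene Atp6v0a1 at 83.6 and 13.7 CPM. Lyst, a regulator of granule size, was the lower one at 28.4 and 141 CPM, followed by Unc13d at 158 and 165 CPM.

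Promoter windows of 300 bases (250 before to 50 after the start, RefSeq, build GRCm38.p6) matched 7 of the 8 genes, all but Serpinb1a, with a pair of windows each for Serpina3f and Serpinb6a. Both strands were searched for TTCNNNGAA, the form bound by STAT factors, which IL-2 signals through, and for a loose form of NF-κB sites, GGG and CC with 5 bases between. The first was in the windows of Serpinb6a, Serpina3f and Serpina3g, 3 of 7 genes, and in 8.30% of 32851 promoter windows. The second was in 4 of 7 genes (Serpinb9b, Serpinb6a, Serpina3f and Serpina3g) and in 50.8% of all windows. For Serpinb6a it was in the window not shown. A gene was counted if any of its windows held the motif, but the shares are per window. The counts and the shares are thus not like measures, and no difference between them was tested. The windows shown hold the STAT form, with both motifs in capitals. They lie at chr12:104214294-104214593 and chr12:104235897-104236196 (plus strand) and chr13:34002745-34003044 (minus strand).
Serpina3f: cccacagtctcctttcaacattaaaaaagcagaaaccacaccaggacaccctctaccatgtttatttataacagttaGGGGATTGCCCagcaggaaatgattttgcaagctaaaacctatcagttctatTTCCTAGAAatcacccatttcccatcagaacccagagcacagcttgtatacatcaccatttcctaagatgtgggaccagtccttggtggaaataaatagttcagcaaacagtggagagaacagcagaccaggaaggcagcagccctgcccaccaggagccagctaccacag
Serpina3g: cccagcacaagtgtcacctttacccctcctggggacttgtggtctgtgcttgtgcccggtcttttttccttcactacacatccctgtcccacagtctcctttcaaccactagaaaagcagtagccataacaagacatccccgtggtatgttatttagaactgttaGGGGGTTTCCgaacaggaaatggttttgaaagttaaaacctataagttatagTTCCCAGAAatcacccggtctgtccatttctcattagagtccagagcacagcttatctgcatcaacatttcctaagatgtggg
Serpinb6a: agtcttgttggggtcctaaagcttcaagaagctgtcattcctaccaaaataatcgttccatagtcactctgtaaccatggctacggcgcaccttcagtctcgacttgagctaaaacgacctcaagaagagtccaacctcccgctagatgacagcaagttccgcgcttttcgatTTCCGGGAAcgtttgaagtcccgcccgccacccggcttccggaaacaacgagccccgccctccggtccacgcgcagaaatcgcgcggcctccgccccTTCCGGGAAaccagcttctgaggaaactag

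Serpina3f and Serpina3g carry both motifs in the same order, and their windows are 83.7% identical over 202 aligned bases. In the Serpina3f window 2 matches of the second motif overlap. A match describes these letters and not the binding of a factor.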

How the data were processed

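RNA-seq counts of 2 libraries were analysed, with each column matched to its library by title. Values were deposited by the authors as raw read counts per gene, not normalised, with a gene length. The submitters' processing notes name edgeR 3.28.1, HTSeq 0.6.0, STAR 2.6.0 and bcl2fastq 2.18.0.12, with the builds mm10 and GRCm38. Their roles and settings, the strand and the annotation are not given in the sources used here. Copies whose reads match several places may be undercounted.

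CPM were computed with TMM factors (edgeR 4.0.16, R 4.3.3; 0.947 for the expanded and 1.06 for the fresh library). A prior count of 2 went into log2 folds, and ratios of CPM had exact conditional binomial (Clopper-Pearson) 95% intervals, which cover counting error only. The other deposited value, length in kb, is used only for TPM, whose intervals are exact Poisson. Sequences and overlaps came from GENCODE M21 and RefSeq (biopython 1.88). The calculation was tested on simulated data.

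The 8 genes and all lists were chosen with earlier results of these data known. By the naming rule, the text names the 8, other serpins with a mean of at least 1 CPM, the 2 genes furthest up and down per list, known target proteases, the most abundant markers, and measured genes inside the cluster. Further genes were named after their values were seen: the near-silent serpins of the cluster, genes overlapping a member (1110046J04Rik, Gm36099 and Serpina3h), and markers at 0 counts. The markers Cd2, Batf3, Cd14, Itgam, Cd68 and Hdc were named then too. Gzmm was also set beside Serpinb9b then. Some results that the rule covers are not reported here.

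The alternatives tried changed the scaling (upper quartile, total count, that total less each library's top 50 genes, or size factors of DESeq2 1.42.0), the prior count (0.5 or 5), the minimum (none or 5 CPM) and the fold (4). Leaving out members, and lengths from GENCODE M21, were tried only after the data were seen.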

Additional observations from a re-analysis of the deposited data

How the results depend on the processing

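No paired analysis was possible because there was 1 library a group, and no library could be left out. By CPM, all 8 serpins had a log2 fold above 0 under every scaling and prior count tried, with ranges of 2.96 to 3.11 for Serpinb9, 7.07 to 7.94 for Serpinb9b, 2.68 to 2.84 for Serpinb6a, 1.05 to 1.21 for Serpinb6b, 0.12 to 0.28 for Serpinb1a, 3.78 to 7.01 for Serpinb1b, 0.65 to 0.81 for Serpina3f and 0.22 to 0.38 for Serpina3g. The count of 5 serpins at least 2-fold higher was within 1.5 times under all settings but the one without Serpinb9b and Serpinb1b (3). Total-count scaling moved the median log2 fold of all genes by -0.16. The ratio of the 8 summed was 3.09 with total counts, 3.279 with upper quartiles, 3.26 without the 50 most abundant genes and 2.36 without Serpinb9.

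Among serpins outside the 8, the main setting gave 1 higher and 2 lower of 3 measured. No filter gave 6 higher and 6 lower, and a minimum of 5 CPM gave 1 lower. Other protease inhibitors at least 2-fold higher numbered 1 under each of the 4 other scalings and at 4-fold, since Cst7 lies at 2.005-fold, and 5 with no filter. At 4-fold, 8.92% of all genes were higher and 13.5% lower. Granule release genes then had 3 of 13 higher (6 at 2-fold). T cell markers had 0 higher and 1 lower of 9 (1 and 2 at 2-fold). Dendritic cell genes had 0 of 10 higher (1 at 2-fold, with 9 lower). With no filter, neutrophil markers had 6 of 13 lower (1 of 3 in the main setting, with 2 higher). Mast cell markers had 2 higher and 4 lower of 9 (1 and 1 of 3 in the main setting). Granule proteases had 2 of 13 lower (1 of 10 in the main setting). With a minimum of 5 CPM, B cell markers had 5 of 5 lower (11 of 11 in the main setting) and mast cell markers 0 of 2 lower. Mast cell markers had 2 lower by total count and without the 50 most abundant genes. Shares of all genes were not computed for a changed minimum or scaling. In the main setting, 10 of 11 B cell and 6 of 10 dendritic cell genes passed through the fresh library alone. Those had to be lower. Each of the 3 measured neutrophil markers passed through 1 library alone, as did Mcpt8 and Hdc. Fresh-library counts of 0 to 5 limit Serpinb9b and Serpinb1b.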
